A study of Mus musculus with 12 samples.

Results

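The 8 genes described here encode enzymes of cholesterol synthesis: Hmgcs1, Idi1, Fdps, Fdft1, Sqle, Lss, Cyp51 and Dhcr7. They are a list of names set with earlier results of these data known, and all 8 are among the 17283 genes of the table. RNA was measured by sequencing in the medial prefrontal cortex (mPFC) of mice, in 12 libraries that form 4 groups of 3. C57 mice, the wild-type reference strain, received either the solvent control, DMSO (C57 vehicle), or astragaloside IV (C57 ASIV). BTBR mice, inbred animals whose strain serves as an autism model, received DMSO (BTBR vehicle) or astragaloside IV (BTBR ASIV). Astragaloside IV (ASIV) is a saponin of Astragalus root, and the injections were intraperitoneal and went on for 7 days in all 4 groups. The stated question was whether ASIV improves neurotransmission in BTBR mice. The dose, the age and sex of the animals and the number of mice behind each library are not stated in the labels, so the p-values below measure the spread between these libraries, which may be technical.

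Cholesterol is built from acetyl-CoA in a chain of reactions that runs through mevalonate, the isoprenoid diphosphates, squalene and lanosterol. Hmgcs1 makes HMG-CoA ahead of mevalonate, Idi1 isomerises isopentenyl diphosphate, and Fdps joins isoprenoid units into farnesyl diphosphate. Fdft1 (squalene synthase) commits farnesyl diphosphate to sterols, Sqle epoxidises squalene, and Lss cyclises the epoxide to lanosterol. Cyp51 demethylates lanosterol, and Dhcr7 reduces 7-dehydrocholesterol to cholesterol. The brain makes its own cholesterol, because lipoproteins do not cross the blood-brain barrier. The sterol-regulated factor SREBP2 raises transcription of the genes of this pathway when cholesterol in the endoplasmic reticulum is low.

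In BTBR mice, 4 of the 7 enzymes that could be tested were called lower after ASIV than after vehicle and none higher, where 15.4% and 13.7% of all tested genes were called. They were Hmgcs1, Idi1, Fdft1 and Cyp51, with log2 differences of -0.52 to -0.86. Sqle, Lss and Dhcr7 did not pass the test, and Fdps was too low to be tested. None of the 7 passed the test for ASIV in C57 mice. The difference between the strains in the response to ASIV was itself past the threshold for Hmgcs1 and Fdft1. The plot of levels by library shows all 8 genes.

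**Figure D1:**
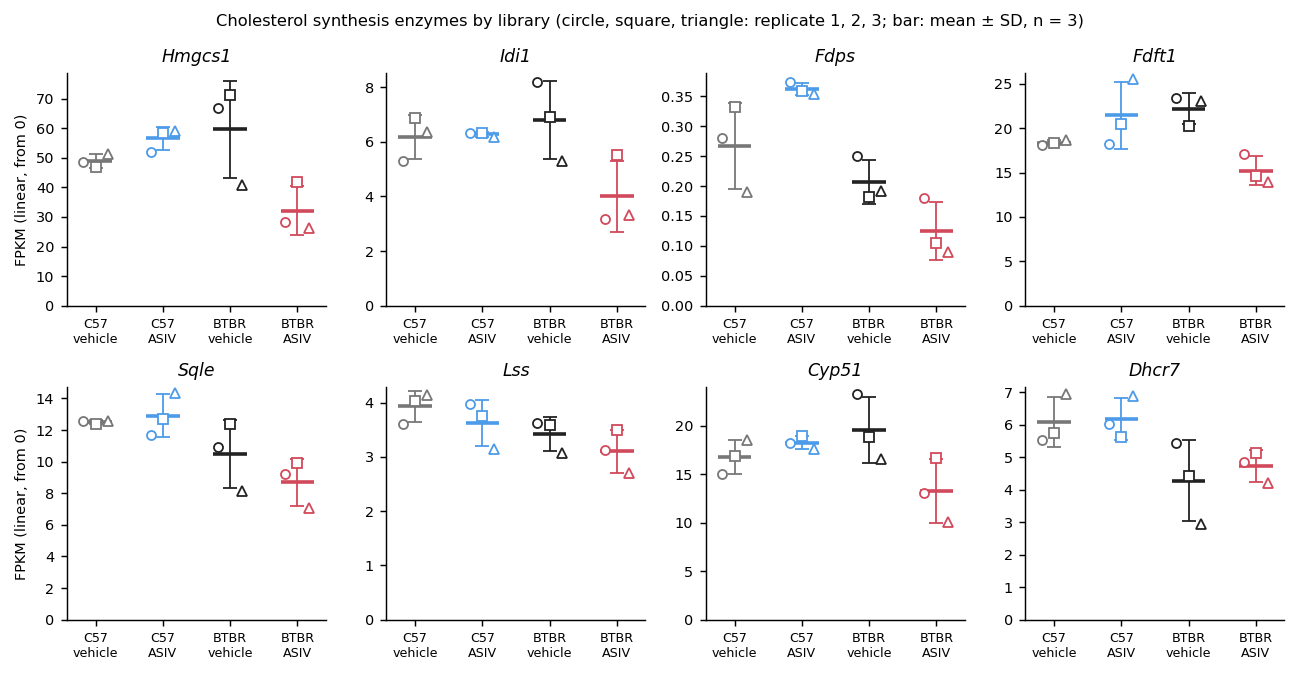
FPKM (vertical axis, linear and starting at 0) of each of the 8 enzymes in the 12 libraries, grouped on the horizontal axis by strain and treatment. Circles, squares and triangles are replicates 1, 2 and 3, and the bar with whiskers is the mean ± SD of 3 libraries. For Fdft1 the 3 BTBR ASIV libraries, at 14.0 to 17.1, lie below the other 9.

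Levels are given as FPKM (fragments per kilobase of exon, scaled to library depth), which allows levels to be compared between genes. Tests were run with limma on log2(FPKM + 1) over 13586 genes, with Benjamini-Hochberg adjustment over all of them. Calls are those with an adjusted p under 0.05. Differences are on that scale, with the standard error (SE) of the model. The libraries held 16166326 to 18660039 fragments. Libraries of the BTBR vehicle group stood apart from all others on the first principal component (54% of the variance, 36.9 to 47.8 against -23.7 to 2.25). Their mRNAs of the mitochondrial genome made up 0.456 ± 0.160% of fragments (SD, n = 3), against 3.13 ± 0.098% in BTBR ASIV, 3.98 ± 0.912% in C57 ASIV and 4.62 ± 0.183% in C57 vehicle. The variance between libraries, averaged over genes, was 0.0642 in BTBR vehicle, 0.05 in BTBR ASIV, 0.0376 in C57 ASIV and 0.0226 in C57 vehicle. All 10 neuronal and all 8 cortical excitatory neuron markers were at 0.1 FPKM or more in every library.

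The stretch of 250 bases before the start of transcription is shown for 3 enzymes that fell in BTBR ASIV and for Lss, which did not pass the test, because these genes share a regulator. The sequences are from RefSeq promoters of GRCm38.p6, the assembly also called mm10, where 5 of the 8 enzymes matched. Fdps, Fdft1 and Sqle did not match. The starts used here are those of RefSeq. For Idi1, Cyp51 and Lss they lie inside the gene positions given below, which are from GENCODE M21. The end of each of these stretches thus overlaps the gene as placed there. Each sequence reads 5′ to 3′ on the strand of its gene. Capitals mark the core of a sterol regulatory element (TCACNCCA), the CCAAT box (CCAAT) and the GC box (GGGCGG), searched on both strands, so that ATTGG and CCGCCC are the latter pair read from the other strand.
Hmgcs1, chr13:119690101-119690350, plus strand: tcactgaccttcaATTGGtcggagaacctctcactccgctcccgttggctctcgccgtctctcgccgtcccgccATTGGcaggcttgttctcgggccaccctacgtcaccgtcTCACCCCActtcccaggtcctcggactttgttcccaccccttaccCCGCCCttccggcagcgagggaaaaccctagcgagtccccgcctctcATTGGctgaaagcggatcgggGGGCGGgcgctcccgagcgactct
Idi1, chr13:8885356-8885605, plus strand: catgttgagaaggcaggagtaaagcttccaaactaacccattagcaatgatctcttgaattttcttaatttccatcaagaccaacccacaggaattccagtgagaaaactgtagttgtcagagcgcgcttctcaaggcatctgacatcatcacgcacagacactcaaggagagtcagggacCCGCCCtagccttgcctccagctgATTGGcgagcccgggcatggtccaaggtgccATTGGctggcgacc
Cyp51, chr5:4104698-4104947, minus strand: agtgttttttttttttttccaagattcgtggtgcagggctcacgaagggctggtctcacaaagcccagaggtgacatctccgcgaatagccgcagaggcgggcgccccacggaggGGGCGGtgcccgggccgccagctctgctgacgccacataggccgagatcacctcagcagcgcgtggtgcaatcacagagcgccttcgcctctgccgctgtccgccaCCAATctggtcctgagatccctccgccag
Lss, chr10:76531355-76531604, plus strand: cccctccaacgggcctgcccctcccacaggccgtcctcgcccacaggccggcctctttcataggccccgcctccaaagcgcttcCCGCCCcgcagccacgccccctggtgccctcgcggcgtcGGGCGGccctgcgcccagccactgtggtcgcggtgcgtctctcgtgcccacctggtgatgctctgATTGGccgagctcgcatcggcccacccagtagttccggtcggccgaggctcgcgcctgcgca
The pattern TCACNCCA was found in Hmgcs1 only, among the 5 enzymes matched, as TCACCCCA, 137 to 130 bases before the start. Other spellings of the sterol regulatory element were not searched, so a promoter without a match may still hold one. Counted by gene, it is present in 4.97% of the 27025 genes with promoter windows of 300 bases (250 before to 50 after the start). A CCAAT box was present in all 5 enzymes matched and in 41.1% of genes, and a GC box in all 5 and in 38.2% of genes. Counted by window, the CCAAT box was in 5 of the 7 windows of these enzymes and in 37.4% of all 32851, and the GC box in 6 of 7 and in 35.7%. In Lss the CCAAT box lies 62 to 58 bases before the RefSeq start. In Idi1 the nearest lies 14 to 10 bases before it, and in Cyp51 29 to 25 bases before it. These boxes of Idi1 and Cyp51 lie past the gene start of GENCODE M21. Both boxes were thus present in the enzymes that fell and in Lss alike, and a match describes letters, not a bound factor.

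Hmgcs1 (ENSMUSG00000093930, chr13:119690379-119708260, plus strand, GRCm38), the cytosolic HMG-CoA synthase, was the most abundant of the 8 enzymes. Its level was 66.8, 71.1 and 40.9 FPKM in the BTBR vehicle libraries and 28.4, 41.8 and 26.3 in BTBR ASIV. The BTBR vehicle library of replicate 3 lay below the highest BTBR ASIV library, so the groups overlapped. Hmgcs1 fell by 0.86 on the log2 scale (SE 0.20, adjusted p = 0.00706 with limma), and stayed under the threshold in all 24 alternatives (highest adjusted p 0.0484). The group means were 59.6 ± 16.3 and 32.2 ± 8.40 FPKM (SD, n = 3). C57 libraries lay between 46.8 and 51.2 under vehicle and between 52.0 and 59.2 under ASIV.

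Idi1 (ENSMUSG00000058258, chr13:8885501-8892451, plus strand) makes the allylic isomer that starts isoprenoid chains. It was at 8.17, 6.92 and 5.31 FPKM in BTBR vehicle and at 3.17, 5.50 and 3.32 in BTBR ASIV. Again the third vehicle library lay below the second ASIV library. Idi1 fell by 0.66 (SE 0.17, adjusted p = 0.0125 with limma). The call was lost without BTBR ASIV replicate 1 (-0.54, adjusted p = 0.0518) and without BTBR ASIV replicate 3 (-0.56, adjusted p = 0.0511), and in a fit of the pair of BTBR groups alone (adjusted p = 0.062). The annotation holds 3 copies of Idi1 sequence elsewhere in the genome, up to 100% identical over 684 bases, so fragments could be split between them. The copy in the table, Gm13502, was at 0.237 to 0.942 FPKM.

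Fdft1 (ENSMUSG00000021273, chr14:63145150-63179578, minus strand), the squalene synthase, was the 1 enzyme of the 7 tested whose BTBR groups did not overlap. Its BTBR vehicle libraries were at 23.4, 20.2 and 23.1 FPKM and its BTBR ASIV libraries at 17.1, 14.6 and 14.0. Fdft1 fell by 0.52 (SE 0.12, adjusted p = 0.00638 with limma), from 22.2 ± 1.74 to 15.2 ± 1.63 FPKM (SD, n = 3). The call held under all 24 alternatives tried, with adjusted p of 0.00242 to 0.0282. Over all genes, 20.1% had every BTBR ASIV library below every BTBR vehicle library, against 1 of 7 enzymes tested. Fdft1 shares 774 exon bases, 18.3% of its exon length, with Ctsb on the opposite strand, and whether the counting used strand is not stated. A processed copy of Fdft1, Gm6781, is 97.4% identical over 1249 bases, so fragments could be split with it too. Ctsb, a lysosomal protease, was at 78.1 ± 4.93 FPKM in BTBR vehicle and 81.2 ± 1.32 in BTBR ASIV (SD, n = 3, log2 difference 0.06, adjusted p = 0.691 with limma).

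Cyp51 (ENSMUSG00000001467, chr5:4081145-4104746, minus strand), the lanosterol demethylase, was at 23.3, 18.9 and 16.6 FPKM in BTBR vehicle and at 13.1, 16.7 and 10.1 in BTBR ASIV. The lowest vehicle and the highest ASIV library lay side by side, at 16.62 and 16.68. Cyp51 fell by 0.54 (SE 0.16, adjusted p = 0.0221 with limma), and its call was the least stable of the 4. It was lost without BTBR vehicle replicate 1 (-0.42, adjusted p = 0.0796), BTBR ASIV replicate 1 (-0.55, adjusted p = 0.0517) or BTBR ASIV replicate 3 (-0.37, adjusted p = 0.0891). It was also lost after rescaling without the mitochondrial genes (-0.46, adjusted p = 0.0542), with array weights by group (adjusted p = 0.0517) and in the BTBR groups alone (adjusted p = 0.0861).

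Sqle, Lss and Dhcr7 did not pass the test in BTBR mice. Sqle (ENSMUSG00000022351, chr15:59315077-59331192, plus strand) was at 10.9, 12.4 and 8.13 FPKM under vehicle and at 9.20, 9.89 and 7.04 under ASIV. Its log2 difference was -0.23 (95% interval -0.55 to 0.08, adjusted p = 0.24 with limma), and without BTBR vehicle replicate 3 it was -0.39 (adjusted p = 0.0476). That interval reaches the size of the fall in Fdft1, so the data do not set Sqle apart from the enzymes that fell. Lss (ENSMUSG00000033105, chr10:76531588-76557138, plus strand) was at 3.63, 3.59 and 3.06 FPKM under vehicle and at 3.12, 3.49 and 2.70 under ASIV. Its difference was -0.11 (95% interval -0.34 to 0.12, adjusted p = 0.464 with limma). Dhcr7 (ENSMUSG00000058454, chr7:143823145-143848410, plus strand), which acts at the end of the pathway, was at 5.44, 4.44 and 2.96 FPKM under vehicle and at 4.87, 5.14 and 4.20 under ASIV. Its difference was 0.14 (95% interval -0.19 to 0.48, adjusted p = 0.518 with limma), and the 3 ASIV libraries all fell within the range of the vehicle libraries.

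Fdps (ENSMUSG00000059743, chr3:89093588-89101959, minus strand), the farnesyl diphosphate synthase, was listed at 0.0899 to 0.374 FPKM, which equals 7 to 29 fragments, and did not reach the minimum of 1 FPKM in 3 libraries. It was at 0.249, 0.181 and 0.191 FPKM in BTBR vehicle and at 0.181, 0.105 and 0.0899 in BTBR ASIV, so that these groups did not overlap, with the nearest libraries at 0.1809 and 0.1805. In C57 it was at 0.280, 0.332 and 0.190 under vehicle and at 0.374, 0.359 and 0.354 under ASIV. The annotation holds 5 processed copies of Fdps, of which the most similar, Gm3571, is 98.9% identical over 1062 bases, and a gene on the same strand, Gm43738, shares 26.7% of its exon bases. Fragments that fit more than 1 gene may have been dropped or split by the counting, so this level may not be that of the Fdps mRNA. Gm3571, the copy in the table, was more abundant, at 5.42, 6.96 and 4.67 FPKM in BTBR vehicle and 3.12, 3.86 and 2.19 in BTBR ASIV. It fell by 0.73 (SE 0.21, adjusted p = 0.0223 with limma), and whether these fragments came from Fdps itself was not tested.

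Read against the background, 4 of 7 enzymes were called lower where 15.4% of all tested genes were, and 0 of 7 were called higher where 13.7% were. The median log2 difference of the 7 was -0.52, against -0.01 over all tested genes. Leaving out BTBR ASIV replicate 1 or replicate 3 reduced the count from 4 to 2, with Hmgcs1 and Fdft1 still called, and leaving out BTBR vehicle replicate 3 raised it to 5. After rescaling without the mitochondrial genes, 63.1% of all calls in this comparison were higher, against 47.1% before, and 11.2% of genes were called lower. Under that scaling 3 enzymes were called lower and none higher. The plot of differences gives each enzyme in all 5 comparisons.

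**Figure D2:**
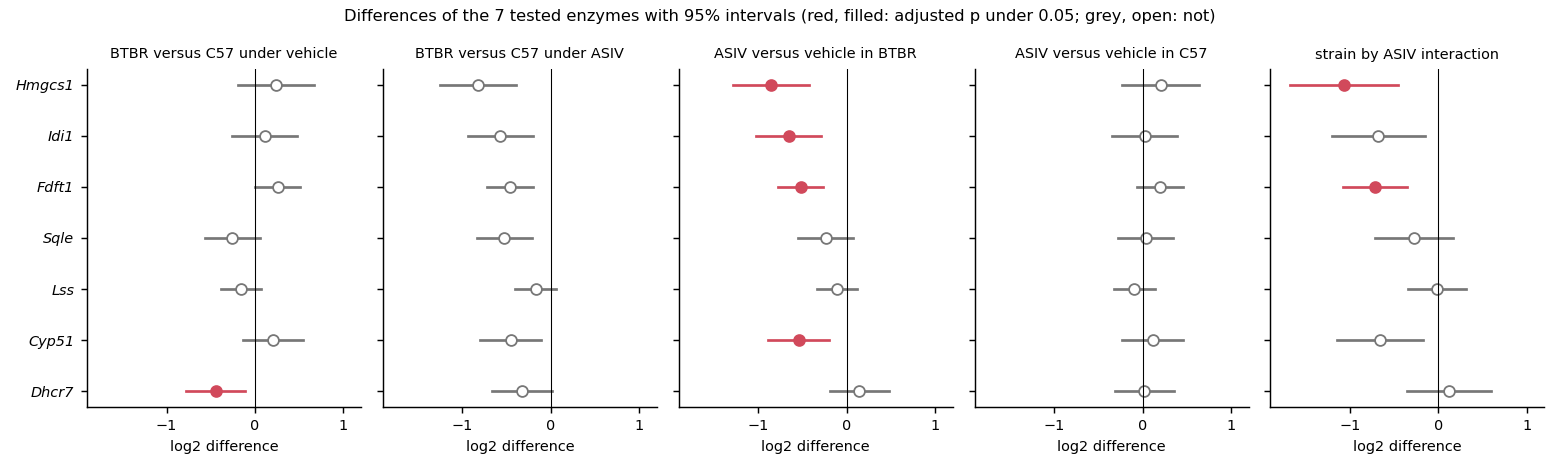
Log2 differences (horizontal axis) of the 7 tested enzymes with 95% intervals from the model, in the 5 comparisons. Red filled points have an adjusted p under 0.05: Hmgcs1, Idi1, Fdft1 and Cyp51 for ASIV in BTBR, Hmgcs1 and Fdft1 for the interaction, and Dhcr7 between the strains under vehicle.

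The summed levels of 7 lists of cell type markers overlapped between BTBR vehicle and BTBR ASIV. So did those of 10 neuronal markers, at 1000 to 1224 and 978 to 1159 FPKM, with none called. Single markers of the other lists, save the striatal one, were called, where 15.4% of all genes were called lower and 13.7% higher. The summed level of 12 oligodendrocyte markers was 667 to 1564 FPKM in BTBR vehicle and 566 to 1101 in BTBR ASIV, and 1 of the 12, the myelin gene Mog, was called lower (-1.004, SE 0.32, adjusted p = 0.0387 with limma). Of these 12, 10 had differences below 0 and 2 above, with a median of -0.38, against -0.007 over all tested genes. For 10 astrocyte markers the sums were 635 to 825 and 774 to 881 FPKM, with Aldoc called higher and Aldh1l1 lower. The sums of 8 cortical excitatory neuron markers were 401 to 489 and 325 to 405 FPKM, with Tbr1 called lower, and the sums of 6 striatal markers 23.1 to 84.4 and 16.4 to 185, with none called. For 7 markers of oligodendrocyte precursors the sums were 162 to 236 and 132 to 183 FPKM (1 called higher, 1 lower), for 8 of microglia 194 to 240 and 222 to 289 (2 higher, 1 lower) and for 8 of endothelial cells 128 to 164 and 103 to 142 (2 higher, 3 lower). No marker of these lists was under 0.1 FPKM in any library, and their part in the fall of the enzymes was not tested. In bulk tissue, fewer cells of a type and less RNA per cell cannot be told apart.

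In C57 mice no enzyme passed the test for ASIV, and 0% of the 13586 genes did (417 had an unadjusted p under 0.05 with limma, and voom on the recovered fragments also called 0). Hmgcs1 was at 48.6, 46.8 and 51.2 FPKM under vehicle and at 52.0, 58.5 and 59.2 under ASIV, and was the 1 enzyme of 7 whose C57 groups did not overlap, with ASIV higher, which 6.14% of all genes showed. Its difference was 0.20 (95% interval -0.23 to 0.64, adjusted p = 1 with limma). Fdft1 was at 18.1, 18.4 and 18.7 under vehicle and at 18.3, 20.5 and 25.6 under ASIV. For Idi1 the means were 6.18 ± 0.800 and 6.27 ± 0.085 FPKM, for Cyp51 16.8 ± 1.78 and 18.2 ± 0.676, and for Sqle 12.5 ± 0.114 and 12.9 ± 1.35 (SD, n = 3). Lss went from 3.93 ± 0.280 to 3.63 ± 0.425 and Dhcr7 from 6.08 ± 0.770 to 6.18 ± 0.648. The 7 differences ran from -0.09 (Lss) to 0.20, and their median was 0.04.

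The response to ASIV differed between the strains for 2 of 7 enzymes. The difference in BTBR minus that in C57 was -1.06 for Hmgcs1 (SE 0.28, adjusted p = 0.0266 with limma) and -0.72 for Fdft1 (SE 0.17, adjusted p = 0.0148). It was -0.68 for Idi1 (adjusted p = 0.0795) and -0.66 for Cyp51 (adjusted p = 0.0683), which did not pass. For Sqle it was -0.27, for Lss -0.02 and for Dhcr7 0.12. Over all genes 7.36% were called lower and 6.91% higher in this comparison, a split of 48.4% higher that became 59.0% after rescaling without the mitochondrial genes. The Fdft1 call held under all 23 alternatives. The Hmgcs1 call was lost, with adjusted p of 0.0514 to 0.0637, without C57 vehicle replicate 1 or 2, C57 ASIV replicate 2 or 3, BTBR vehicle replicate 2, or BTBR ASIV replicate 1 or 3. The count of calls fell to 1 without any of those libraries, and rose to 4 without BTBR vehicle replicate 3 or BTBR ASIV replicate 2.

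Between the strains under vehicle, Dhcr7 was lower in BTBR. It was at 5.53, 5.75 and 6.96 FPKM in C57 and at 5.44, 4.44 and 2.96 in BTBR, so that the groups did not overlap, with the nearest libraries at 5.53 and 5.44. Dhcr7 fell by 0.45 (SE 0.16, adjusted p = 0.0353 with limma), and the call was lost without BTBR vehicle replicate 3 (-0.25, adjusted p = 0.144), C57 vehicle replicate 3 (-0.36, adjusted p = 0.129) or C57 vehicle replicate 2 (-0.48, adjusted p = 0.0626). It was also lost after rescaling to TPM (adjusted p = 0.0696) and in the vehicle groups alone (adjusted p = 0.0799). This makes 1 of 7 enzymes called lower and 0 higher, where 20.8% and 22.3% of all genes were called. Fdft1 was higher in each BTBR vehicle library than in each C57 vehicle library (difference 0.26, adjusted p = 0.0976 with limma), and Sqle was lower in each (-0.26, adjusted p = 0.171). Of the 7 enzymes, 2 thus had all BTBR vehicle libraries below all C57 vehicle libraries and 1 had them above, where 25.9% and 27.4% of all genes did. The same BTBR vehicle libraries serve in this comparison and in that of ASIV in BTBR.

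Under ASIV the 7 enzymes all had lower means in BTBR than in C57, by -0.17 (Lss) to -0.82 (Hmgcs1), and 0 of 7 passed the test, where 1.22% of genes were called lower and 1.31% higher. Hmgcs1 was nearest, with an adjusted p of 0.0512 with limma, and Fdft1 followed at -0.46 (adjusted p = 0.0632). Sqle stood at -0.53 (adjusted p = 0.0766), Idi1 at -0.57 (adjusted p = 0.102) and Cyp51 at -0.46 (adjusted p = 0.143). In 6 of the 7, all but Lss, every BTBR ASIV library was below every C57 ASIV library, which 12.7% of all genes showed. The count of calls rose from 0 to 3 without BTBR vehicle replicate 2 or BTBR ASIV replicate 2, to 2 without BTBR vehicle replicate 3 and to 1 without C57 ASIV replicate 1. With a replicate block it was 1, Hmgcs1 (adjusted p = 0.0369).

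Ordered by group, Hmgcs1, Idi1, Fdft1 and Cyp51 had their highest mean in BTBR vehicle and their lowest in BTBR ASIV, with the C57 groups between. For each of the 4, the BTBR vehicle mean exceeded its neighbour, C57 ASIV, by less than 1 SD of the BTBR vehicle libraries. Sqle and Lss were lowest in BTBR ASIV too, at 8.71 ± 1.49 and 3.10 ± 0.396 FPKM (SD, n = 3), but highest in a C57 group. Dhcr7 was lowest in BTBR vehicle, at 4.28 ± 1.25 FPKM, and next in BTBR ASIV, at 4.74 ± 0.482, and these neighbours did not differ beyond their spread. Within the BTBR groups the order of libraries was alike for most enzymes. BTBR vehicle replicate 3 was the lowest of its group for 6 of the 8 enzymes and replicate 1 the highest for 6. BTBR ASIV replicate 3 was the lowest of its group for 7, and replicate 2 the highest for 6. The C57 groups showed this less. In C57 vehicle, replicate 1 was lowest for 5 of the 8 and replicate 3 highest for 5. In C57 ASIV, replicate 3 was lowest for 4 and highest for 4.

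The rest of the pathway was measured by 13 other enzymes of cholesterol synthesis, all tested. In BTBR mice given ASIV, 2 of the 13 (15.4%) were called lower and 0 higher, with a median difference of -0.14. This share equals the 15.4% of all genes called lower, so the 13 as a group did not stand apart by their count. Pmvk (phosphomevalonate kinase, a step ahead of Idi1) was at 40.04, 37.5 and 38.1 FPKM in BTBR vehicle and at 19.5, 20.1 and 20.2 in BTBR ASIV. Its C57 libraries were at 15.4 to 21.6, so that the BTBR vehicle libraries stood above the other 9. Pmvk fell by 0.92 (SE 0.11, adjusted p = 0.000164 with limma). Msmo1, which removes methyl groups after Cyp51, was at 18.9, 17.3 and 14.0 in BTBR vehicle and at 9.83, 12.8 and 8.24 in BTBR ASIV, and fell by 0.66 (SE 0.15, adjusted p = 0.00594). Both calls held under all 24 alternatives. Acat2 (-0.37, adjusted p = 0.0567) and Tm7sf2 (-0.27, adjusted p = 0.0675) did not pass.

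**Figure D3:**
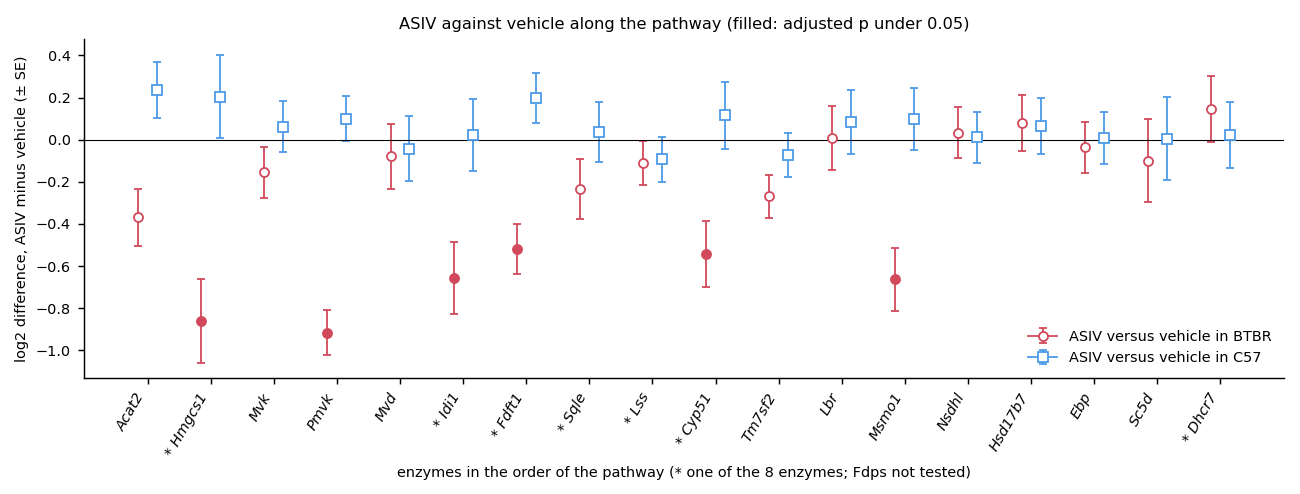
Log2 difference of ASIV minus vehicle (vertical axis, ± SE) for 18 tested enzymes in the order of the pathway (horizontal axis), in BTBR (red circles) and C57 (blue squares). The 6 filled points, all in BTBR and all below 0, are Hmgcs1, Pmvk, Idi1, Fdft1, Cyp51 and Msmo1, the calls with an adjusted p under 0.05.

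Of the 21 enzymes in all, 20 were tested, and 6 of the 20 were called lower and 0 higher for ASIV in BTBR, where 15.4% and 13.7% of all genes were called. These 6 are the 4 of 7 and the 2 of 13 given above. The steps at the end of the pathway, from Nsdhl to Dhcr7, held none of the 6, a contrast that was not tested. Between the strains under vehicle, Pmvk was higher in BTBR (1.12, SE 0.11, adjusted p = 1.4e-05 with limma) and 4 of the 13 other enzymes were called lower, where 22.3% of all genes were called higher and 20.8% lower. Nsdhl, a sterol dehydrogenase, fell from 6.44 ± 0.604 to 3.78 ± 0.657 FPKM (SD, n = 3), a difference of -0.64 (adjusted p = 0.00108). Hsd17b7 (-0.42, adjusted p = 0.0242) was lost without C57 vehicle replicate 1 or 2 or BTBR vehicle replicate 3, with adjusted p up to 0.0987. Mvd was lost in 12 of 24 alternatives (highest adjusted p 0.176). These include the fits without any 1 of the C57 vehicle libraries, C57 ASIV replicate 1 or 2, BTBR vehicle replicate 2 or 3, or BTBR ASIV replicate 1. Under ASIV, Nsdhl was called lower again (-0.62, adjusted p = 0.0182). It did not pass without C57 ASIV replicate 2 or 3, or BTBR ASIV replicate 1 or 3 (highest adjusted p 0.0889).

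Genes that set the pathway to the level of sterols were tested in 16 of 16 cases. For ASIV in BTBR, 3 of the 16 (18.8%) were called lower and 0 higher (median -0.17), near the 15.4% of all genes called lower. Stard4, which carries cholesterol between membranes, fell from 8.56 ± 1.91 to 4.30 ± 0.460 FPKM (SD, n = 3), a difference of -0.83 (SE 0.13, adjusted p = 0.000732 with limma). Insig2, which holds the SREBP carrier in the endoplasmic reticulum, fell by 0.42 (adjusted p = 0.0426). The Insig2 call was lost in 14 of 24 alternatives, with adjusted p up to 0.136, among them those without any 1 of the 6 C57 libraries, BTBR vehicle replicate 2, or BTBR ASIV replicate 1 or 3. Its difference was -0.24 without BTBR vehicle replicate 2. Insig1, a target of SREBP2, was not called for ASIV in BTBR.

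Between the strains under vehicle, 3 of the 16 were called lower and 3 higher (18.8% each), below the 20.8% and 22.3% of all genes called. Srebf2, which encodes SREBP2, was at 49.1 ± 1.94 FPKM in C57 and 36.4 ± 1.41 in BTBR (SD, n = 3, difference -0.42, adjusted p = 0.00314 with limma). Insig1 was also called lower (-0.43, adjusted p = 0.0183), a call lost without C57 vehicle replicate 2 or BTBR vehicle replicate 3 (highest adjusted p 0.0788). Among the 3 higher were Insig2 (0.53, adjusted p = 0.00972, and 0.35 without BTBR vehicle replicate 2) and Erlin2 (0.28, adjusted p = 0.0236). The Erlin2 call was lost without C57 vehicle replicate 2 or 3 or BTBR vehicle replicate 1 or 2 (highest adjusted p 0.105). Under ASIV 4 were called lower and 0 higher, where 1.22% and 1.31% of all genes were called. Among the 4 were Insig1 (-0.74, adjusted p = 0.0115), Stard4 (-0.70, adjusted p = 0.0161) and Srebf2 (-0.40, adjusted p = 0.0389). Each of the 3 named calls was lost without C57 ASIV replicate 2 and without C57 ASIV replicate 3. Stard4 was also lost without BTBR ASIV replicate 3, and Srebf2 without BTBR ASIV replicate 1 or 3. Srebf2 was lost as well without C57 ASIV replicate 1 or any C57 vehicle library, with adjusted p up to 0.161.

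Branches that draw on farnesyl diphosphate for uses other than sterols held 11 tested genes. For ASIV in BTBR, 6 were called lower and 1 higher, with a median of -0.28, where 15.4% and 13.7% of all genes were called. Rabggtb, a subunit of the enzyme that attaches geranylgeranyl groups to Rab proteins, fell from 27.4 ± 2.17 to 17.6 ± 0.635 FPKM (SD, n = 3), by 0.61 (SE 0.10, adjusted p = 0.000927 with limma). Dhdds, which makes the dolichol chain, fell by 0.47 (adjusted p = 0.00214), Coq2, of ubiquinone synthesis, by 0.51 (adjusted p = 0.00226), and Fnta, of protein farnesylation, by 0.47 (adjusted p = 0.00252). Ggps1, which makes geranylgeranyl diphosphate, went the other way, from 5.09 ± 0.594 to 7.81 ± 1.28 FPKM (0.53, adjusted p = 0.0106). These 5 calls held under all 24 alternatives. Under vehicle, 6 of the 11 were called higher in BTBR than in C57 (22.3% of all genes) and 1 (20.8% of all genes), Ggps1, lower (-0.59, adjusted p = 0.00359), with Rabggtb at 0.93 (adjusted p = 2.74e-05). Under ASIV no gene of the list passed between the strains.

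**Figure D4:**
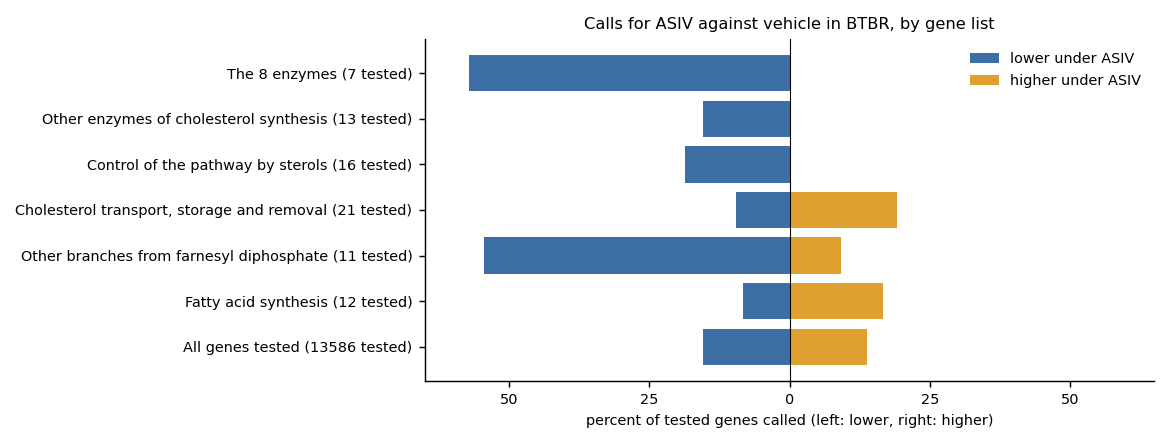
Share of tested genes called for ASIV against vehicle in BTBR (horizontal axis, percent, lower to the left and higher to the right of 0), for the 8 enzymes, 5 other gene lists and all genes tested. The enzymes had 4 of 7 called lower and none higher, beside 15.4% lower and 13.7% higher over all genes.

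Cholesterol transport, storage and removal was measured by 21 tested genes of 22. In BTBR mice given ASIV, 4 of the 21 (19.0%) were called higher and 2 (9.52%) lower, with a median of 0.06, beside 13.7% and 15.4% of all genes. Scarb1, a lipoprotein receptor, rose from 1.76 ± 0.172 to 3.34 ± 0.310 FPKM (SD, n = 3, 0.65, adjusted p = 0.000613 with limma), and Abcg4, a sterol exporter, by 0.39 (adjusted p = 0.0079). Apoe, the main apolipoprotein of the brain, fell from 2053 ± 423 to 1344 ± 152 FPKM (-0.60, adjusted p = 0.0151). That call was lost without BTBR vehicle replicate 3 or BTBR ASIV replicate 2 and in the BTBR groups alone (highest adjusted p 0.0567). With quantile normalization the difference was -1.57 (adjusted p = 0.000309). Osbp fell by 0.30 (adjusted p = 0.0123) and was lost in the BTBR groups alone. Under vehicle, 3 of the list were called higher and 5 lower in BTBR, where 22.3% and 20.8% of all genes were. Apoe was at 1.24 (adjusted p = 9.74e-05, and 2.07 with quantile normalization), Scarb1 at -0.75 (adjusted p = 0.000105) and Abcg4 at -0.62 (adjusted p = 0.000253). Under ASIV, Apoe was the 1 call (0.78, adjusted p = 0.0241), lost without C57 ASIV replicate 2 or 3, without BTBR ASIV replicate 1 or 3 and with quantile normalization (0.515, adjusted p = 0.188, the highest).

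Fatty acid synthesis, which draws on the same acetyl-CoA, had 12 tested genes. For ASIV in BTBR 2 were called higher (16.7%) and 1 lower (8.33%), with a median of 0.07, beside 13.7% and 15.4% of all genes. The desaturase Fads1 rose from 50.3 ± 9.30 to 82.9 ± 4.03 FPKM (SD, n = 3, 0.72, adjusted p = 0.00121 with limma) and Fads2 from 51.6 ± 11.6 to 73.5 ± 3.01 (adjusted p = 0.0103). Me1, which supplies NADPH, fell by 0.47 (adjusted p = 0.00721). The Fads2 call was lost in the BTBR groups alone (adjusted p = 0.0607). Under vehicle 5 of the 12 were called lower and 1 higher in BTBR (20.8% and 22.3% of all genes), and under ASIV none was called.

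The 5 genes whose levels over the 12 libraries were most like the mean standardised level of the enzymes were Ccnd1 (Pearson's r 0.932), Fhad1 (0.907), Cetn4 (0.888), Msmo1 (0.884) and Gnpda1 (0.881). These values describe 12 libraries that share groups and depth, and carry no test. Msmo1 belongs to the pathway itself and acts after Cyp51. Ccnd1, a cyclin, was at 9.63 ± 2.36 FPKM in BTBR vehicle and 6.79 ± 1.46 in BTBR ASIV (SD, n = 3, difference -0.44). Fhad1 was at 0.733 ± 0.0769 and 0.339 ± 0.164 FPKM in the same groups (-0.38), and reached 1 FPKM in C57 libraries only. Both were picked for a pattern like that of the enzymes, so their fall in BTBR ASIV is no separate result.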

How the data were processed

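RNA of 12 mPFC libraries was measured by sequencing. The authors' deposited table holds FPKM for 17283 genes. The submitters' processing notes name HISAT2 2.0.5 and mm10, while the counter, annotation and strand setting were not given in the sources used here. Gene positions and exon lengths are from GENCODE M21. FPKM times exon length gave whole fragments for 97.6 to 98.0% of values under 50 fragments (within 0.02), and from that the depth of each library.

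A gene was tested where its FPKM reached 1 in 3 or more libraries (13586 genes). limma 3.58.1 (R 4.3.3) fitted 4 group means to log2(FPKM + 1) for 5 comparisons, with a robust variance trend and 8 degrees of freedom, and the procedure was tested on simulated data. Copies of the enzymes were sought with blastn 2.17.0. The 8 enzymes were always named, with up to 4 genes of the smallest p from each other list and the 5 genes of most similar pattern. The enzymes and lists were chosen with earlier results of these data known. Alternatives covered the pseudocount, filter, scaling, voom, variance model, groups fitted, replicate block and each library left out. A few genes of the lists count in the totals but are not named here.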

Additional observations from a re-analysis of the deposited data

Results flagged for a closer look

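The response to ASIV differed between BTBR and C57 mice, by the interaction term of the limma fit, for 15 genes of the enzymes and lists described. Over all tested genes, 7.36% were called lower and 6.91% higher by this term. Values are the log2 difference in BTBR minus that in C57, with adjusted p over all genes. In sterol synthesis the genes called were Hmgcs1 (-1.06, adjusted p = 0.0266) and Fdft1 (-0.72, adjusted p = 0.0148), 2 of the 7 tested enzymes. Pmvk (-1.02, adjusted p = 0.00204) and Msmo1 (-0.76, adjusted p = 0.0318) were 2 of the 13 other enzymes. Stard4, of sterol transfer, had -0.997 (adjusted p = 0.00539), 1 of the 16 genes in the list of sterol control.

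Among the 21 tested genes of the transport list, those called were Scarb1 (0.74, adjusted p = 0.00554), Abcg4 (0.48, adjusted p = 0.0294) and Osbp (-0.39, adjusted p = 0.0319). Of the 11 in the branches from farnesyl diphosphate they were Rabggtb (-0.74, adjusted p = 0.00593), Dhdds (-0.56, adjusted p = 0.012), Fnta (-0.45, adjusted p = 0.0357) and Coq2 (-0.45, adjusted p = 0.0472). Of the 12 in fatty acid synthesis they were Fads1 (0.95, adjusted p = 0.00515), Fads2 (0.79, adjusted p = 0.0152) and Me1 (-0.57, adjusted p = 0.0284).

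Pmvk, Stard4, Scarb1, Rabggtb, Dhdds, Fads1, Fads2 and Fdft1 were called in every alternative run. With adjusted p up to 0.122 over all alternatives, Msmo1, Abcg4, Osbp, Fnta, Coq2 and Me1 were each lost without 1 or more libraries. For Msmo1 these were C57 vehicle replicate 1 or 2, C57 ASIV replicate 1 or 3, BTBR vehicle replicate 1 or 2 and BTBR ASIV replicate 1 or 3. For Abcg4 they were C57 vehicle replicate 1 or 2, C57 ASIV replicate 1 or 3, BTBR vehicle replicate 3 and BTBR ASIV replicate 1. For Me1 they were C57 vehicle replicate 2 or 3, C57 ASIV replicate 1 or 3 and BTBR ASIV replicate 1. For Osbp they were C57 vehicle replicate 2 or 3, C57 ASIV replicate 1 or 3 and any 1 of the BTBR ASIV libraries. For Coq2 and Fnta 10 and 9 of the 12 libraries had this effect. The scaling mattered as well: Osbp, Fnta and Coq2 were lost with quantile normalization and after rescaling without the mitochondrial genes. Abcg4 was lost after rescaling to TPM. Osbp and Fnta were also lost with the replicate block, and Coq2 with no filter and without the robust variance trend. BTBR vehicle libraries, which stood apart from the rest, enter each of these values.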

How the results depend on the processing

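Hmgcs1 and Fdft1 for ASIV in BTBR, and Fdft1 for the interaction, kept their direction and their call under each alternative run. With each library left out in turn, the enzymes called lower numbered 2 to 5 for ASIV in BTBR (4 with all libraries), 1 to 4 for the interaction (2), 0 to 3 between the strains under ASIV (0) and 0 to 1 under vehicle (1), where 0 to 1 was called higher (0). In fits of only the groups compared, 2 enzymes were called lower for ASIV in BTBR, 0 between the strains under vehicle and 1 under ASIV. After rescaling to TPM, 0 were called lower and 1 higher under vehicle, and 1 lower under ASIV. Between the strains under ASIV, 1 was called lower with quantile normalization (Hmgcs1), 2 with a filter of FPKM of at least 5 and with voom, and 3 with array weights by group. With no filter 1 was called lower as well, but no call of the 7 enzymes of the main fit changed there. That call is thus of Fdps, at 7 to 29 fragments. Lss reversed to 0.033 for the interaction after rescaling without mitochondrial genes. Among enzymes not called, signs changed with a library left out, over the ranges -0.017 to 0.252 (Idi1 between the strains under vehicle), -0.068 to 0.092 (Idi1 in C57), -0.037 to 0.101 (Sqle in C57), -0.048 to 0.109 (Dhcr7 in C57), -0.093 to 0.055 (Lss, interaction), -0.049 to 0.303 (Dhcr7 in BTBR) and -0.071 to 0.281 (Dhcr7, interaction). The cause was not tested, except that leaving out libraries or groups leaves fewer samples.

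Over all genes, the fit of the BTBR groups alone called 1111 higher and 1147 lower for ASIV, against 1864 and 2090. With a library left out, the calls between the strains under ASIV ranged from 50 to 352 higher and 49 to 291 lower (178 and 166 with all), and those of the interaction from 594 to 990 higher and 552 to 1188 lower (939 and 1000). A block on replicate number left the count of enzymes called lower at 4 for ASIV in BTBR, 2 for the interaction and 1 under vehicle, and raised it from 0 to 1 under ASIV (Hmgcs1). The numbers are not said to mark a shared litter, batch or day, so they were not taken to pair the samples. Deviations of libraries with the same number correlated from -0.172 to 0.279, and those with different numbers from -0.37 to 0.225. These values do not exclude a pairing. Fdps had 7 to 29 fragments on 4208 exon bases, where Fdft1 had 1094 to 1816 on 4227 in the same libraries. The cause of the low count of Fdps was not tested.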
